A study of Mus musculus with 4 samples.

Results

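The LIF receptor and STAT3 pathway was examined on mouse microarrays through 9 genes: the cytokine gene Lif, the receptor genes Lifr and Il6st, the kinase gene Jak1, the phosphatase gene Ptpn11, the transcription factor gene Stat3, and the STAT3 target genes Socs3, Pim1 and Pim3. Every array feature whose symbol in the platform's probe table is 1 of these names was taken, whatever its level. This gave 27 features of 45220 on the array, for 8 of the 9 genes. They were 11 features for Stat3, 5 for Lifr, 3 each for Jak1 and Ptpn11, 2 for Pim1 and 1 each for Il6st, Socs3 and Pim3. No feature carries the symbol Lif, so Lif is not analysed here.

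The arrays measured RNA of E14 cells, a mouse embryonic stem (ES) cell line, transfected with a pSuper plasmid and kept for 2 days in puromycin, at 1 mg/ml as the labels state it. There were 4 plasmids with 1 array each. The controls were pSuper without an insert (the empty vector) and pSuper encoding a luciferase hairpin. The Mtf2 RNAi arm was made of cells given pSuper encoding Mtf2 hairpin 1 or Mtf2 hairpin 3. All 4 arrays therefore carry RNA of transfected and puromycin-selected cells. Whether the culture medium held LIF is not given in the sources used here. The plasmids of an arm serve as its replicates, 2 arrays against 2, so every p-value rests on the spread between arrays of different plasmids, part of which may be technical. In RNA from whole cultures, fewer cells of a type and less RNA per cell cannot be told apart.

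Leukemia inhibitory factor (LIF) is the cytokine classically added to mouse ES cell cultures to hold back differentiation. It binds a receptor made of LIFR and gp130, the product of Il6st, and the receptor-bound kinase JAK1 then phosphorylates STAT3, which enters the nucleus and switches on target genes. Socs3 is both a direct target and the main feedback inhibitor, and Pim1 and Pim3 encode serine/threonine kinases that favour self-renewal when overexpressed. The phosphatase SHP2, encoded by Ptpn11, links the same receptor to the Ras and ERK branch. Mtf2, the target of the hairpins, is an accessory subunit of Polycomb repressive complex PRC2 whose winged-helix domain recognises unmethylated, CpG-rich DNA. The study asked what happens to transcript levels in ES cells when Mtf2 is targeted.

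The promoter windows of these genes were described by a STAT motif and by their CpG content. The 9 genes have 11 windows of 300 bases in a RefSeq promoter table of build GRCm38.p6, each from 250 bases before to 50 bases after a gene start, with Lifr and Pim1 having 2 starts each. The palindromic STAT motif TTCNNNGAA, which reads the same on both strands, was searched in every window. It was found in 1 of the 11 windows, that of Socs3, and in 8.3% of all 32851 windows of this length. The Socs3 window lies at chr11:117969317-117969616 on the minus strand and is shown 5′ to 3′ because it holds that match, TTCTTAGAA, in capitals, starting at position -154 from the gene start.
Socs3: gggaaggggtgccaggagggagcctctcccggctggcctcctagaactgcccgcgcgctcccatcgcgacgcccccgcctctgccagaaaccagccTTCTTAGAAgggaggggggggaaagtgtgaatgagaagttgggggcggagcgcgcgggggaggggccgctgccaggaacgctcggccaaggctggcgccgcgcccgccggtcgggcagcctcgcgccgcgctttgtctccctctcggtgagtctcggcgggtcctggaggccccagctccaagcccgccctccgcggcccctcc

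A match is a description of the letters and not a measured binding site. The windows differed in CpG content. The median window of the table held 7 CpG dinucleotides, and 8 of the 11 windows held more, from 15 at Stat3 to 53 at the first start of Lifr. The Lif window held 7, the second Pim1 window 5 and the second Lifr window 4. The windows of the receptor genes and of Stat3 are shown with CpG dinucleotides in capitals, and were picked with the results below in view. The first Pim1 window (42), the Pim3 window (40) and the Ptpn11 window (37) held more CpG than that of Il6st and are not shown. A link of CpG content to the readings was not tested. The Il6st window holds 33 and lies at chr13:112463820-112464119 on the plus strand, and the first Lifr window holds 53 and lies at chr15:7129322-7129621 on the plus strand. The Stat3 window holds 15 and lies at chr11:100939491-100939790 on the minus strand.
Il6st: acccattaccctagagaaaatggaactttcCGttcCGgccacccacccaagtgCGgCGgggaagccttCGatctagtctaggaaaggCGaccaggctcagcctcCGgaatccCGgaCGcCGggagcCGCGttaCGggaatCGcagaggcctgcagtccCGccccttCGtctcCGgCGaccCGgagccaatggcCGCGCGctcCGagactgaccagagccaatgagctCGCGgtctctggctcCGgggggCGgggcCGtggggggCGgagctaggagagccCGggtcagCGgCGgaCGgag
Lifr: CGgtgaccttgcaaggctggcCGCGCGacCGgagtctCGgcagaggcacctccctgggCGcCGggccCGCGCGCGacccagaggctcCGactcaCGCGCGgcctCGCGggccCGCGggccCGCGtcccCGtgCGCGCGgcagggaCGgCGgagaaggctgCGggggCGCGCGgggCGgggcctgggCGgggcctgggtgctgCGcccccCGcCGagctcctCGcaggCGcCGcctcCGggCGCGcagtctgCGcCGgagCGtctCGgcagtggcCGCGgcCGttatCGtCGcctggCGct
Stat3: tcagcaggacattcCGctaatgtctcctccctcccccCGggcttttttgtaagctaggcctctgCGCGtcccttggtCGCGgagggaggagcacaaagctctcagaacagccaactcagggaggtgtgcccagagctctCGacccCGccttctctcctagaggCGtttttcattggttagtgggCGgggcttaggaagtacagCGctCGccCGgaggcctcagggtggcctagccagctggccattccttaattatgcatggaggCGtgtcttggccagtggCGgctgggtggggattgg

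No binding or methylation was measured in these samples. The readings below are the deposited intensities after setting the 75th percentile of all arrays to 22.97 units, and differences are log2 of Mtf2 RNAi minus control after values under 1 unit were raised to 1. The median feature of the array read 3.08 units. The empty-vector array had 1681 positions whose neighbours read over 0.5 log2 away from the 4-array median, 1638 of them low and in columns 70 to 85 of the array, against 8 to 23 positions on the other arrays. None of the 27 pathway features lay at such a position. Of 4 Mtf2 features, 3 read lower on both Mtf2 RNAi arrays than on both control arrays, by -0.78 (SE 0.22), -1.02 (SE 0.32) and -1.08 log2 (SE 0.21). The brightest did not (0.19, SE 0.71). It read 174.7 units (empty vector) and 736.9 units (luciferase) in the controls, 2.08 log2 apart. With hairpins 1 and 3 it read 500.9 and 334.8 units, both between the controls. None of the Mtf2 features passed limma's test (adjusted p = 0.868 for the 3 lower features and 0.954 for the brightest). Of 12 listed ES cell markers, 11 had a feature. Their summed level was 10659 to 14275 units in the control arm and 10847 to 13104 units in the Mtf2 RNAi arm. Dppa5a (2836.5 to 4991.4 units), Klf2 (2643.9 to 3829.6) and Zfp42 (1925.8 to 3084.5) read highest, and Lin28a stayed at 6.75 to 20.51 units. By brightest feature 6 were higher and 5 lower. Nanog read above both controls on both RNAi arrays (0.86 log2), as did 15.1% of all genes. Esrrb (-0.29, other feature 1.32) and Utf1 (-0.40) read below both, as did 18.3%.

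No pathway feature differed between the arms by the test. All 27 features passed the filter on low values, and 0 of 27 had an adjusted p under 0.05 (limma, over 35102 features, 0% of which passed). Their adjusted p ran from 0.868 to 0.998. An unadjusted p under 0.05 was reached by 4 of 27 features (14.8%), against 4.18% of all features. Of these 4, 3 are repeat features of Stat3 that point in opposite directions and the other is a dim Lifr feature, so 1 of the 16 features outside Stat3 reached it. The median difference of the 27 features was 0.12 log2, with 15 higher and 12 lower, beside a median of -0.01 for all features tested. Lifr feature 1500, counted among the 15, rounds to 0.00. Differences ran from -0.93 to 1.06, and 18 of 27 (66.7%) lay within 0.5 log2 of 0, against 76.8% of all features tested.

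The arms did not overlap on 12 of the 27 features. Both Mtf2 RNAi arrays read above both controls on 7 (25.9%), where 14.7% of all features did so, and below both on 5 (18.5%), where 17.5% of all features did so. Outside Stat3 the counts were 3 higher and 3 lower of 16. Features of 1 gene are not independent, so these shares describe the features and carry no test. The difference between the arms was larger than both gaps within the arms on 9 of 27 features (33.3%), against 20.3% of all features. Such a difference requires separate arms, so these 9 are among the 12 above and are not a further result. They were 5 features of Stat3, which point in both directions, 2 of Lifr, 1 of Il6st and 1 of Pim1.

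**Figure D1:**
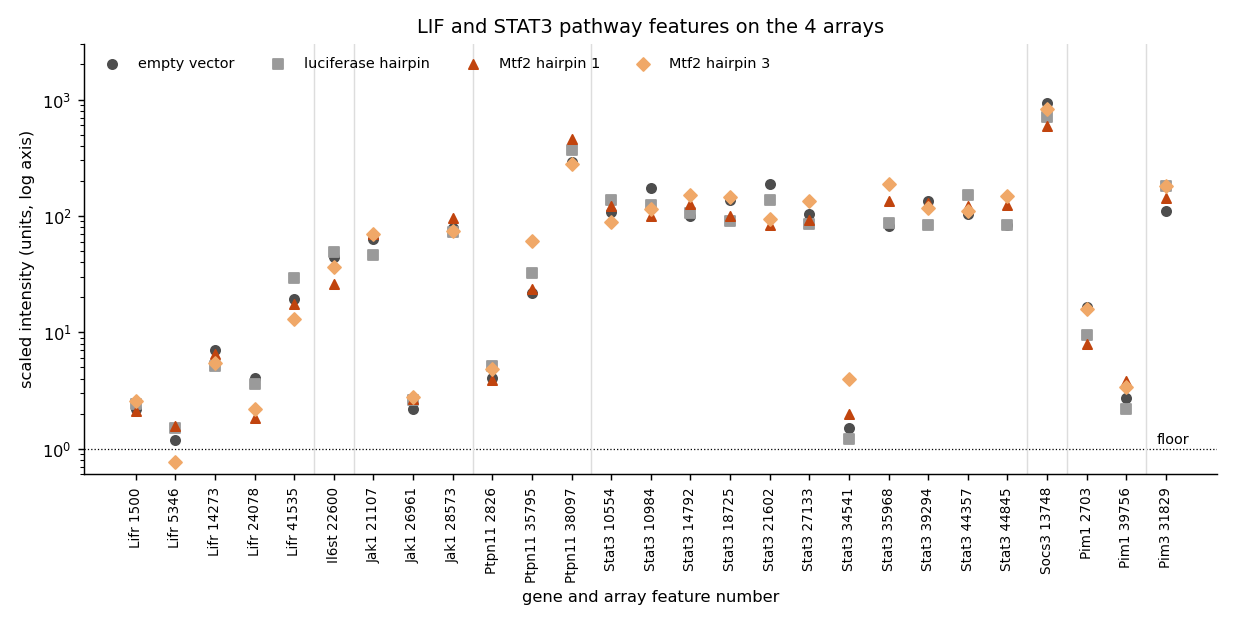
Scaled intensity (units, log axis) of each of the 27 pathway features, with 1 point per array (grey: empty vector and luciferase hairpin; orange: Mtf2 hairpins 1 and 3). The points of a feature lie close together on most features, and the 8 features that stay below 10 units on every array lie near the floor of 1 unit. Levels of different features are not comparable with each other.

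By their brightest feature, the receptor genes Lifr and Il6st gave the lowest differences of the 8 genes. Il6st encodes gp130, the signal-transducing chain that LIF shares with interleukin-6 and other cytokines. Its single feature read 44.51 units (empty vector) and 48.73 units (luciferase) in the controls, against 26.13 units for hairpin 1 and 36.73 units for hairpin 3. Both Mtf2 RNAi arrays were below both controls, hairpin 1 further than hairpin 3 (-0.83 and -0.34 log2 from the control mean). The difference was -0.59 log2 (SE 0.28, 95% interval -1.29 to 0.11), or 0.665 of the control level, and did not pass (adjusted p = 0.868, limma). The feature lies in column 75, within the edge where the empty-vector array read low. Without that array the difference was -0.65, and with the median of its neighbours subtracted it was -0.46.

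Lifr encodes the chain that gives the receptor its specificity for LIF, and its 5 features split. The brightest, feature 41535, read 19.38 and 29.37 units in the controls (empty vector, luciferase) and 17.37 and 12.9 units with hairpins 1 and 3. The arms were separate, but the empty vector lay only just above hairpin 1, and the controls were 0.60 log2 apart. Its difference was -0.67 log2 (SE 0.34, 95% interval -1.55 to 0.21, adjusted p = 0.868, limma).

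The dim Lifr feature 24078 read 4.06 and 3.6 units in the controls and 1.84 and 2.18 units with hairpins 1 and 3. This was the lowest value of all pathway features, -0.93 log2 (SE 0.32, unadjusted p = 0.0314, adjusted p = 0.868, limma). With a floor of 4 units in place of 1 it was -0.01, since only the empty-vector reading lies above that floor. The other 3 Lifr features lay between -0.10 and 0.00 log2 with overlapping arms, at 0.77 to 6.99 units. The mean over all 5 features was -0.35 log2 (SE 0.26, adjusted p = 0.881, limma), with a 95% interval from 0.497 to 1.24 of the control level.

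ES cell cultures can also hold fibroblasts used as feeders, and by their brightest features most markers of these cells read lower alongside the receptor genes. Of the 12 listed markers 11 were tested, each by its brightest feature, and 0 passed (median difference -0.20 log2). Lower values were read for 9, the arms being separate for 5 of these, where 18.3% of all genes were lower with separate arms. Of the 2 higher markers, S100a4 had separate arms, where 15.1% of all genes did so. The direction depended on the feature for every lower marker with more than 1 feature. For Col1a1, 7 of 12 features were higher, with a median of 0.04 log2 over its features. For Thy1, Col1a2 and Col3a1, 1 of 2 features each was higher, that of Col3a1 at 0.00 after rounding. Their summed level was 109.3 and 128.9 units in the control arm and 86.51 and 93.28 units in the Mtf2 RNAi arm. Most of that sum came from Thy1, at 27.92 to 41.42 units, and Pdgfrb, at 31.76 to 57.6 units. Twist2 was at the floor on all arrays, and the matrix genes Postn, Lum, Dcn and Col3a1 stayed below 2 units on every array. The part of such cells in the Lifr and Il6st readings was not tested.

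Downstream of the receptor, the 3 features of Jak1 read 0.15 to 0.38 log2 higher in the Mtf2 RNAi arm. Jak1 encodes the Janus kinase that phosphorylates gp130 and STAT3. Feature 28573 read 78.94 and 73.12 units in the controls and 96.71 and 73.56 with hairpins 1 and 3, so only hairpin 1 stood apart (0.15 log2, SE 0.24). Feature 21107 read 62.73 and 46.46 units in the controls against 70.19 and 69.91 units for hairpins 1 and 3, so that both RNAi arrays were above both controls (0.38 log2, SE 0.25). The dim feature 26961 stayed between 2.19 and 2.8 units, also with separate arms (0.20 log2, SE 0.31). The mean of the 3 features was 0.24 log2 (SE 0.21, 95% interval -0.31 to 0.79), which did not pass (adjusted p = 0.881, limma).

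Ptpn11 encodes SHP2, the phosphatase that couples gp130 to ERK signalling, and its features overlapped between the arms. The brightest, feature 38097, read 290.4 and 364.8 units in the controls and 453.3 and 276.6 units with hairpins 1 and 3. The hairpins lay on either side of both controls, so the arm difference of 0.12 log2 (SE 0.32) averaged a higher and a lower reading. Feature 35795 read 21.71 and 32.24 units in the controls, 23.38 with hairpin 1 and 60.38 with hairpin 3. There hairpin 1 lay between the controls and hairpin 3 stood above the other 3 arrays, 1.37 log2 above hairpin 1. Feature 2826 stayed between 3.88 and 5.1 units (-0.06 log2).

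**Figure D2:**
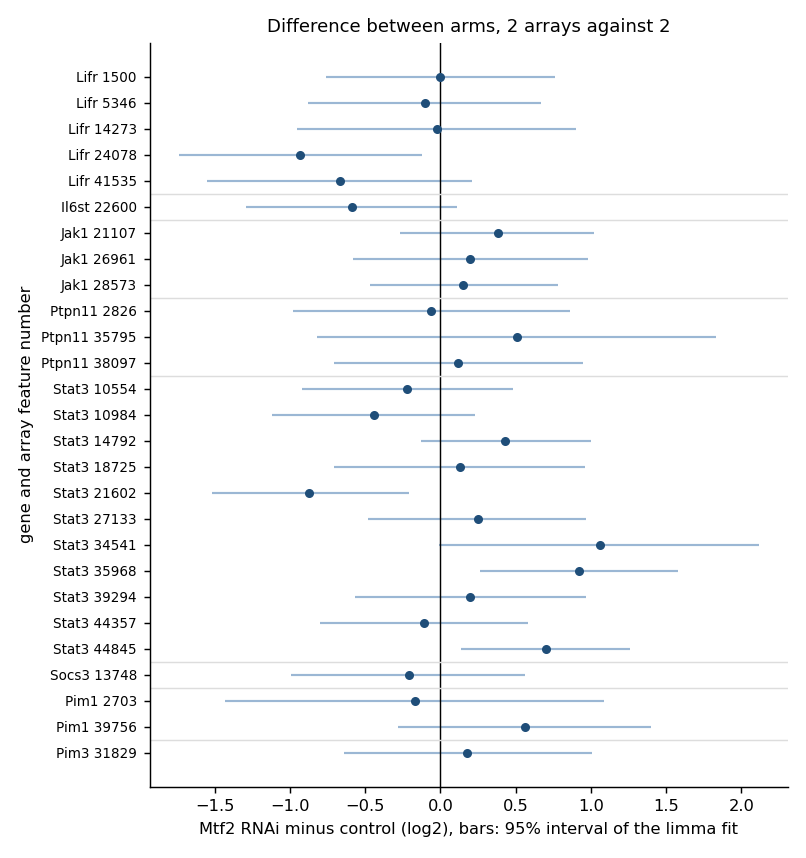
Difference between the Mtf2 RNAi arm and the control arm (log2) for each of the 27 pathway features, with the 95% interval of the limma fit as bars, before any adjustment for the number of features. The interval leaves out 0 on 4 features, Lifr 24078 and the Stat3 features 21602, 35968 and 44845, and the Stat3 features lie on both sides of 0.

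Stat3 had the most features, and its mean difference between the arms was smaller than the spread of these features. STAT3 is the factor through which LIF signalling reaches the genome in mouse ES cells. Of its 11 features, 10 carry the same RefSeq transcript record and read alike in level. Whether they hold the same probe is not given in the sources used here. Over these 10 features the geometric mean was 116.9 units (empty vector) and 105.7 units (luciferase) in the controls, against 112.1 units for hairpin 1 and 126.4 units for hairpin 3. The arms overlapped, since hairpin 1 lay between the controls, and the mean difference was 0.10 log2. Over all 11 features it was 0.19 log2 (SE 0.21, adjusted p = 0.904, limma), with a 95% interval from 0.782 to 1.65 of the control level.

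The 10 repeat features disagreed with each other by far more than their mean differed from 0. Of the 10, 6 were higher and 4 lower, and the arms were separate on 5 of them, 3 higher and 2 lower. Among all features the arms were separate and higher on 14.7%, and separate and lower on 17.5%. Feature 35968 read 82.11 and 86.85 units in the controls and 134.9 and 189.6 units with hairpins 1 and 3 (0.92 log2, SE 0.26, unadjusted p = 0.0154, limma). Feature 21602 read 187.6 and 137.7 units in the controls and 82.81 and 94.03 units with the hairpins (-0.87 log2, SE 0.25, unadjusted p = 0.0187, limma). These features of 1 transcript record point in opposite directions, and both had an adjusted p of 0.868 (limma). Feature 44845 read 84.02 and 83.04 units in the controls and 124.3 and 148.2 units with the hairpins (0.70 log2, SE 0.22). The SD of the difference over the 10 features was 0.53 log2.

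This spread can be set beside that of other genes with many features. Among 15 other genes with at least 8 features of 1 transcript record and a level within 2-fold of Stat3, the SD of the difference had a median of 0.40 log2 and ran from 0.26 to 1.54. In 3 of the 15 it was at least that of Stat3. These were Nup50, Tubb3 and Vegfa, whose highest feature differences were 2.80, 3.77 and 3.22 log2, against 0.92 for Stat3. Their features read less alike in level, with a mean SD within an array of 0.90, 0.98 and 1.15 log2, against 0.33 for Stat3. In Acaa2, Gsta4, H2-K1, Kit, Pex11a and Tfrc the features read about as alike (0.24 to 0.37). The SD of the difference in these genes was 0.27 to 0.42, below that of Stat3. The features around each of the 10 on the array differed between the arms by -0.18 log2 (around feature 21602) to 0.20 log2 (around feature 35968) in median. With the median of its neighbours subtracted from each reading, the SD over the 10 features was 0.46 log2 and the mean difference 0.12. The eleventh Stat3 feature, number 34541, carries another record and was near the floor, at 1.5, 1.21, 1.99 and 3.97 units on the 4 arrays (1.06 log2, SE 0.42).

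**Figure D3:**
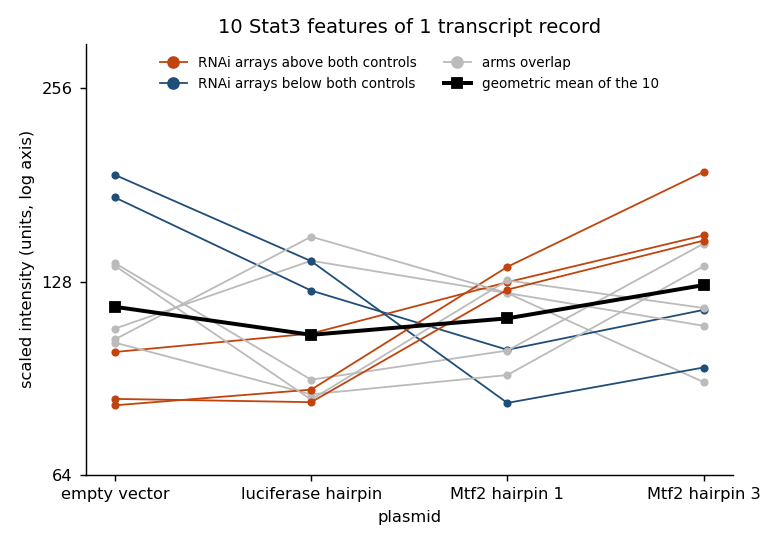
Scaled intensity (units, log axis) of the 10 Stat3 features with 1 transcript record on the 4 arrays; a line follows 1 feature, and the black line is their geometric mean. The mean stays between 105.7 and 126.4 units, while 3 features read higher and 2 lower on both Mtf2 RNAi arrays than on both controls. Of all features, 14.7% did so upward and 17.5% downward.

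The target genes, which serve as a readout of pathway output, overlapped between the arms on their brightest features. Socs3 encodes the suppressor of cytokine signalling that binds gp130 and JAK and shuts the pathway off. Its single feature read 926.4 units (empty vector) and 709.8 units (luciferase) in the controls, against 588.3 units for hairpin 1 and 830.0 units for hairpin 3. Only hairpin 1 was below both controls, and hairpin 3 lay between them. The difference was -0.21 log2 (SE 0.30, adjusted p = 0.899, limma), with a 95% interval of -0.99 to 0.56.

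Pim3 read 110.4 and 182.2 units in the controls and 143.2 and 181.2 units with hairpins 1 and 3. Both hairpins lay between the controls, which were 0.72 log2 apart, the widest upward gap between the control arrays among the 27 features. Its difference was 0.18 log2 (SE 0.32, 95% interval -0.64 to 1.01). Pim1 read 16.57 and 9.56 units in the controls and 7.92 and 15.88 units with the hairpins on its brighter feature. Each arm there held 1 high and 1 low array (-0.17 log2, SE 0.49). Its dim feature read 2.72 and 2.18 units in the controls and 3.8 and 3.4 units with the hairpins, with separate arms (0.56 log2, SE 0.33, adjusted p = 0.868, limma).

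Single arrays of an arm differed from each other by more than the arm means did. Over the 27 features the median size of the difference was 0.22 log2 between the arms, 0.34 between hairpin 3 and hairpin 1, and 0.34 between the luciferase hairpin and the empty vector. For all features tested these medians were 0.26, 0.32 and 0.33. A mean of 2 arrays varies less than 1 array, so the order of these medians carries no comparison of effects. The hairpins differed by at least 1 log2 on 2 of the 27 features (7.9% of all features), with hairpin 3 higher on Ptpn11 feature 35795 and on Pim1 feature 2703. The next widest gap, on Stat3 feature 34541, rounds to 1.00 and lay just under that limit. The control arrays differed by at least 1 log2 on 0 of the 27 features (9.96% of all features), and their gaps ran from -0.79 at Pim1 to 0.72 at Pim3. Each of these comparisons has 1 array on a side and carries no test.

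Other genes of the pathway were taken from 5 lists of 46 genes, of which 43 were tested, each by its brightest feature. None passed limma's test (0 of 43, smallest adjusted p = 0.87). Higher values were seen for 26 of the 43 and lower ones for 17, while 8250 of all 16764 genes were higher and 8514 lower. The 26 include Cntfr, Pias1 and Pias3, on which the empty-vector array alone was low. The median of the 43 genes was 0.13 log2, beside -0.01 over all genes. Both Mtf2 RNAi arrays lay above both controls for 7 genes, where 15.1% of all genes did so, and below both for 2 genes, where 18.3% of all genes did so.

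Among cytokines and receptors 6 of 8 tested genes were higher and 2 lower. The arms were separate for 1 higher gene, against 15.1% of all genes. That gene was Osmr, the receptor chain for oncostatin M that also pairs with gp130. It read 1.39 and 2.05 units in the controls and 3.2 and 2.36 units with the hairpins (0.70 log2, SE 0.34), near the floor. The ligand gene Osm (0.61, SE 0.55) and the interleukin-6 receptor gene Il6ra (-0.42, SE 0.49) overlapped between the arms. The CNTF receptor gene Cntfr (1.03, SE 0.83) had the empty vector below the floor at a defective position in column 84 and 4.3 to 5.66 units on the other arrays.

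Kinases and adaptors had 6 of 9 higher. The adaptor gene Grb2, which links SHP2 to Ras, read 383.3 and 356 units in the controls and 571.2 and 415.2 units with the hairpins (0.40 log2, SE 0.26), and its other feature 1.15 higher. The docking protein gene Gab1 read 76.07 and 87.7 units in the controls and 114.6 and 95.79 units with the hairpins (0.36, SE 0.24). For both, the RNAi arrays stood above the controls, hairpin 1 more than hairpin 3. Of the 9 genes, 2 were higher with separate arms and 1 lower, against 15.1% and 18.3% of all genes. Jak3 read 0.40 higher (SE 0.32) with overlapping arms and -0.34 on its other feature, and Src read -0.34 (SE 0.27) on its brightest feature, but 5 of its 11 features were higher.

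The other STAT genes had 2 of 5 tested genes higher. Stat2, which acts in interferon signalling, read 39.81 and 45.14 units in the controls and 56.53 and 63.73 units with the hairpins (0.50 log2, SE 0.24). Stat5b read -0.79 (SE 0.43) on its brightest feature, where the luciferase array at 97.92 units stood apart from 32.51 to 47.04 units on the others, and 2 of its 3 features were higher. Stat4 read 0.17 higher (SE 0.32) and Stat5a -0.26 (SE 0.39).

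Inhibitors of the pathway had 6 of 9 higher and none with separate arms. Cish, a STAT5 target of the SOCS family, read 0.54 higher (SE 0.35), and Socs2 read -0.41 (SE 0.39). Pias1 and Pias3, which encode inhibitors of activated STATs, had the largest values (2.91, SE 1.77, and 1.14, SE 1.04). On both the empty-vector array alone was low, at 1.18 units against 56.53 to 70.05 for Pias1 and at 0.78 units against 4.66 to 8.81 for Pias3, in columns 73 and 76 of the array. The Pias3 feature is at a defective position of that array, and the other features of the genes read 0.02 (Pias1) and 0.15 (Pias3).

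Genes that LIF and STAT3 sustain in ES cells were 6 higher and 6 lower of 12, with a median of 0.02 log2. Klf4, a naive pluripotency factor and STAT3 target, read 1121 and 1836 units in the controls and 2341 and 3629 units with the hairpins (1.02 log2, SE 0.39, adjusted p = 0.87, limma). Tbx3 read 346.4 and 626 units in the controls and 857.6 and 933.9 units with the hairpins (0.94, SE 0.35), while its other feature read 0.02 higher. Both genes were higher on each Mtf2 RNAi array than on each control, with the empty vector lowest. Of the 12 genes, 2 were higher with separate arms and 1 lower, against 15.1% and 18.3% of all genes. Myc read 27.41 and 35.35 units in the controls and 18.54 and 19.71 units with the hairpins (-0.70, SE 0.28), and 11 of its 12 features were lower. Junb read 0.55 higher (SE 0.38), with hairpin 1 alone apart at 520.9 units against 242 to 260.2 on the other arrays, and 0.03 higher on its other feature.

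**Figure D4:**
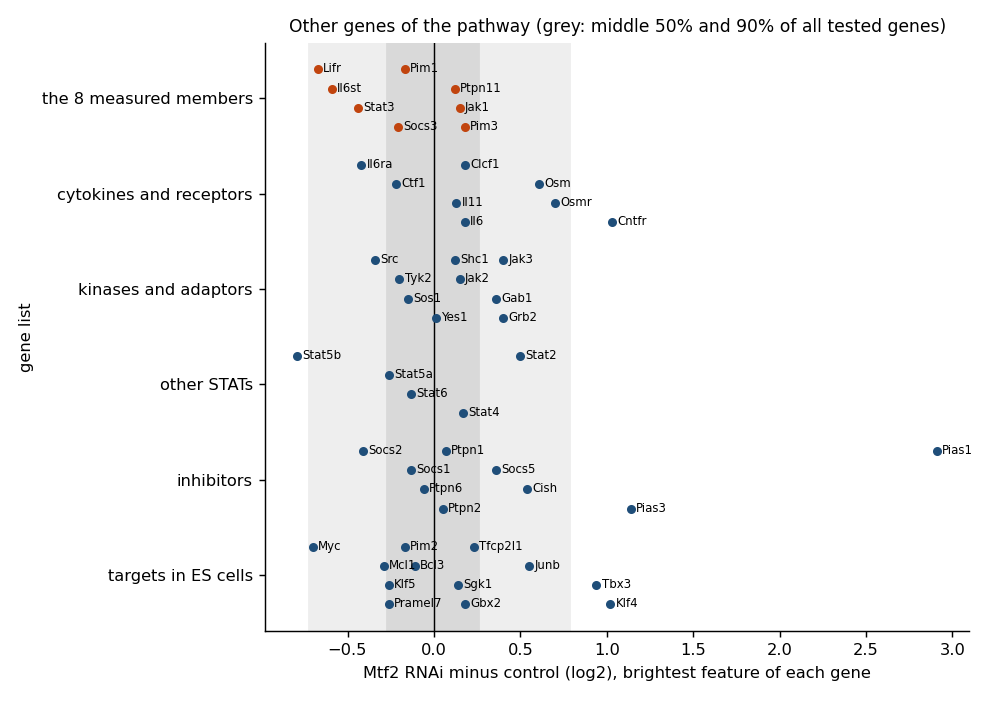
Difference between the Mtf2 RNAi arm and the control arm (log2) by gene list, with 1 point per gene at its brightest feature; grey bands hold the middle 50% and 90% of all tested genes (-0.27 to 0.26 and -0.72 to 0.79). All 8 measured pathway members lie within the wider band, with Lifr and Il6st the lowest of the 8, and none of the genes shown passed the test. Stat3 is plotted by its brightest feature (-0.44), while the mean over its 11 features was 0.19.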

How the data were processed

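The values deposited by the authors are linear intensities, 1 per array feature. Per the labels' protocols, Cy3-labelled cRNA was hybridised as 1 colour. How the arrays were scanned, background-corrected and normalized is not given in the sources used here. Readings below 0 show that a background had been subtracted. Before scaling, array medians were 2.92 to 3.22 units.

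Arrays were multiplied to share one 75th percentile, readings under 1 unit were set to 1, and values were log2-transformed. Features at the floor on all 4 arrays (10118 of 45220, 22.4%) were left out. The test of Mtf2 RNAi against control used lmFit and eBayes (trend) of limma 3.58.1 under R 4.3.3. Benjamini-Hochberg adjustment ran over 35102 features, or over 16764 genes for gene-level values, with a threshold of 0.05. The procedure was tested on simulated data. No detection calls were used, and the number of arrays limits the precision. Features were named through the platform annotation of 2016, which gives 1 gene symbol for 33653 features and several for 56 (unnamed here), and does not list 11511. A layout of 532 rows by 85 columns was inferred from the feature numbers. Defective positions are those where neighbours (7 by 7) deviated from the 4-array median by over 0.5 log2 in median.

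All features of the 9 genes are named. From each of the 5 further pathway lists the 4 genes with the smallest p are named. This rule does not cover the cell type markers, of which those named were picked with their values in view. The members and lists were chosen with earlier results of these data known. Alternatives covered the scaling, the floor, a pseudocount, the filter, the variance trend, array position and leaving out each array. Promoter windows come from RefSeq, and all 9 genes matched. The coordinates are those of GRCm38.p6.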

Additional observations from a re-analysis of the deposited data

How the results depend on the processing

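No pathway feature passed the threshold under any alternative (limma, 0 features each time), and the smallest adjusted p over all of them was 0.272, for Stat3 feature 21602 without the luciferase array. Over all features, 0 passed under each alternative except 1: with no filter on dim features 30 passed, none of them a pathway feature. At an unadjusted p under 0.05 there were 1467 features, 835 among features above the median one, and 2374 to 4426 with 1 array left out. With all 4 arrays kept, 258 of 259 feature values were counted as not changing sign. Lifr feature 1500, which rounds to 0.00, was given no sign in this count. It read 0.02 without scaling and -0.15 with the median of its neighbours subtracted. The exception in the count was Lifr feature 14273, at 0.08 with the median of its neighbours subtracted, an alternative added after the data were seen. With the mean over features in place of the brightest feature, Stat3 went from -0.44 to 0.19 and Pim1 from -0.17 to 0.20, and the other 6 genes kept their sign. For Stat3 this follows from taking 1 of 10 repeat features that disagree.

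Lifr feature 1500, whose difference rounds to 0.00, was given no sign, and it ran from -0.13 to 0.14 over the arrays left out. Leaving out 1 array otherwise changed the sign of 14 of the 27 features, in 20 of 108 cases. Their ranges over the arrays left out were -0.42 to 0.21 (Lifr 5346), -0.24 to 0.19 (Lifr 14273), -0.05 to 0.35 (Jak1 28573), -0.45 to 0.01 (Stat3 10554), -0.18 to 0.43 (Stat3 18725), -0.03 to 0.53 (Stat3 27133), -0.15 to 0.55 (Stat3 39294), -0.38 to 0.15 (Stat3 44357), -0.46 to 0.03 (Socs3), -0.23 to 0.11 (Ptpn11 2826), -0.18 to 1.19 (Ptpn11 35795), -0.23 to 0.48 (Ptpn11 38097), -0.67 to 0.34 (Pim1 2703) and -0.18 to 0.54 (Pim3). A feature with separate arms cannot change sign when 1 array is left out, so a kept sign there only restates that the arms were separate. This holds for Il6st, Lifr 41535 and Lifr 24078. The Il6st difference ran from -0.83 without hairpin 3 to -0.34 without hairpin 1. Lifr 41535 ran from -0.97 without the empty vector to -0.37 without the luciferase hairpin, and Lifr 24078 from -1.06 to -0.81. An arm left with 1 array was assumed to vary like the other. No paired analysis was possible because the hairpin number names a plasmid, not a shared experiment.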
